A study of Mus musculus with 2 samples.

Results

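The serum amyloid A (Saa) and orosomucoid (Orm) genes, 7 of the 24054 genes in the deposited TPM table, were compared between Pgrmc1 KO and WT mouse liver. The members, Saa1, Saa2, Saa3, Saa4, Orm1, Orm2 and Orm3, were taken by symbol, and the pair of families was chosen by the difference of their TPM between these same KO and WT libraries, so the differences given here describe the libraries and are not evidence from an independent sample. The KO group was male mice of genotype Pgrmc1 -/Y, labelled C57BL/6 (the floxed allele was made in C57BL/6N cells) and aged 8 to 12 weeks, in which a Sox2-Cre driven deletion removed exons 1 and 2 of the X-linked gene from the whole body, and the WT group was male mice of the same labelled strain and age. RNA from the livers of 5 mice (2.5 μg each) was pooled for each genotype and sequenced as 1 library. The spread between mice was therefore not measured, no test between genotypes is possible, and no p-value is given. Whether every mouse of the KO pool or a single one carried a higher level cannot be told from a pool. The targeted gene followed the labels of the libraries, with Pgrmc1 at 949.49 TPM in the WT pool and 0.68 TPM in the KO pool. The second table corresponds to an estimated 22086692 reads on genes in KO and 29710419 in WT.

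Serum amyloid A and orosomucoid are secreted acute phase proteins. Hepatocytes make them under the control of interleukin-6, interleukin-1 and glucocorticoids, which act through STAT3, NF-kB, C/EBP factors and the glucocorticoid receptor. Saa1 and Saa2 encode the acute phase apolipoproteins that circulate on high density lipoprotein, Saa3 is made mainly by macrophages, fat and other tissues outside the hepatocyte, and Saa4 encodes the constitutive form. Orm1, Orm2 and Orm3 encode alpha-1-acid glycoproteins, plasma lipocalins that bind basic and neutral drugs. In the mouse the names Saa1 and Saa2 have been exchanged in the past, and RefSeq still lists each as a synonym of the other.

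The 4 Saa genes lie within 42.3 kb of chromosome 7 and the 3 Orm genes within 21.3 kb of chromosome 4 (GRCm38, the mm10 assembly). In RefSeq coordinates Saa3 spans chr7:46711998-46719615, Saa4 chr7:46727992-46732603, Saa1 chr7:46740497-46743181 and Saa2 chr7:46751833-46754313. Orm1 spans chr4:63344556-63348163, Orm3 chr4:63356069-63359506 and Orm2 chr4:63362449-63365877. Saa1 and Saa2 are transcribed away from each other. The RefSeq promoter table (250 bases before to 50 after a transcript start) held 6 of the 7 genes, all but Orm1. For Saa2, Saa4 and Orm2 the start in that table is the edge of the gene span given above. For Saa1 it is base 46742980, which lies inside the span, for Saa3 base 46715676, which lies 3939 bases inside, and for Orm3 base 63356158, which lies 89 bases inside, so the windows of these 3 genes lie partly or wholly within the span of the gene. Upstream stretches are therefore shown for Saa2, Saa4 and Orm2 only, which differ in how far their levels lay apart between KO and WT. Each is RefSeq sequence of GRCm38.p6, 5′ to 3′ on the strand of the gene, from base -250 to base -51 before the start. Capitals mark a match to TTGCNNAA, a core of the C/EBP element, on either strand.
Saa2: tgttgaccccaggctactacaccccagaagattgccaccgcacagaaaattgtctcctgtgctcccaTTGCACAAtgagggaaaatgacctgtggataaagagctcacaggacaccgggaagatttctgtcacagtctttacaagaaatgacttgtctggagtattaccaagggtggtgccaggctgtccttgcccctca
Saa4: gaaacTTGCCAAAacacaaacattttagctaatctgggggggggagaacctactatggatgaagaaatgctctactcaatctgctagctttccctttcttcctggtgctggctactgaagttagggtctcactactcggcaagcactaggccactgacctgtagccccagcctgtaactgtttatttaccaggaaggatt
Orm2: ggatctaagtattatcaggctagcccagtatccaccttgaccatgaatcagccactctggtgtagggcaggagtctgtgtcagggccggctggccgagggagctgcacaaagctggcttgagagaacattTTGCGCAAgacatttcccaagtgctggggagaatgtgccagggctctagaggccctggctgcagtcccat
The stretches are chr7:46751583-46751782 (plus strand) for Saa2, chr7:46732654-46732853 (minus) for Saa4 and chr4:63362199-63362398 (plus) for Orm2.

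Over the 250 bases before the starts in the promoter table, Saa1 and Saa2 were 95.6% identical, with 238 aligned bases the same. The same stretches of Orm2 and Orm3 were identical at 219 of 245 aligned bases (89.4%). Saa3 aligned with Saa1 at 205 bases with 75.1% identity, and Saa4 with Saa1 at 95 bases only. The letters TTGCNNAA were present in 6 of those 6 promoters and in 10.8% of all 32851 promoters in the table. The windows belong to related copies, so these are not 6 separate matches, and the letters were chosen after the data were seen. The NF-kB letters, GGG and CC set apart by any 5 bases, were present in 3 of the 6 (Saa1, Saa2 and Saa4) and in 50.8% of all promoters. The STAT letters TTCNNNGAA were in 0 of the 6 and in 8.30% of all. The glucocorticoid receptor half-site TGTTCT was present in Orm2 alone among the 6 (19.0% of all), and the letters TATAAA in Orm2 and Orm3 (13.6% of all). All letters were searched on both strands. A match describes the sequence and is not a binding site, and the promoter of Saa4, which lay near its WT level in KO, holds the C/EBP letters too.

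The level of Saa1 was 54.88 TPM in the WT pool and 495.52 TPM in the KO pool. TPM is each gene's share of the transcript pool per length, so the levels of different genes can be set side by side. On the scale log2((KO TPM + 1)/(WT TPM + 1)), which understates the change of low genes and is used below for every log2 change, Saa1 differed by 3.15. Saa2 was at 32.58 TPM in the WT pool and 431.73 TPM in the KO pool, a log2 change of 3.69. More cells that make a transcript and more transcript per cell cannot be told apart in bulk RNA. The 95% intervals of the log2 ratio, from reads estimated in the authors' second table and without the added 1 TPM, were 3.06 to 3.35 for Saa1 (3041 estimated reads in KO and 444 in WT) and 3.58 to 3.95 for Saa2 (2668 in KO and 265 in WT). These intervals cover counting error only and not the differences between mice. Both genes are abundant in KO, where Saa1 was the 224th and Saa2 the 279th gene by TPM, against the 1662nd and the 2600th in WT.

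Saa3, the form made mostly outside the hepatocyte, was at 9.30 TPM in the WT pool and 20.72 TPM in the KO pool, a log2 change of 1.08. It rests on 104 estimated reads in KO and 61.0 in WT, with an interval of 0.73 to 1.68. Saa4, the constitutive form, was at 187.52 TPM in the WT pool and 190.37 TPM in the KO pool, a log2 change of 0.02, and its interval of -0.02 to 0.08 holds 0 on 4998 estimated reads in KO and 6583 in WT. Thus the 3 inducible Saa genes were higher in KO and the constitutive gene between them on the chromosome lay near its WT level.

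Orm1 was the most abundant of the 7 genes in both libraries, at 884.10 TPM in the WT pool and 1137.08 TPM in the KO pool. Its log2 change was 0.36 (interval of the log2 ratio 0.34 to 0.42, on 9564 estimated reads in KO and 9863 in WT), and it ranked 94th in KO and 119th in WT by TPM. Orm2 was at 5.10 TPM in the WT pool and 29.06 TPM in the KO pool, a log2 change of 2.30 (2.14 to 3.01, on 246 estimated reads in KO and 56.5 in WT). The estimate for WT is not a whole number, and RSEM divides shared reads between genes. Orm3 was barely present, at 0.54 TPM in the WT pool and 0.59 TPM in the KO pool on 4 estimated reads in KO and 5 in WT, and its interval of -2.23 to 2.32 means that no difference was detectable at this depth.

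**Figure D1:**
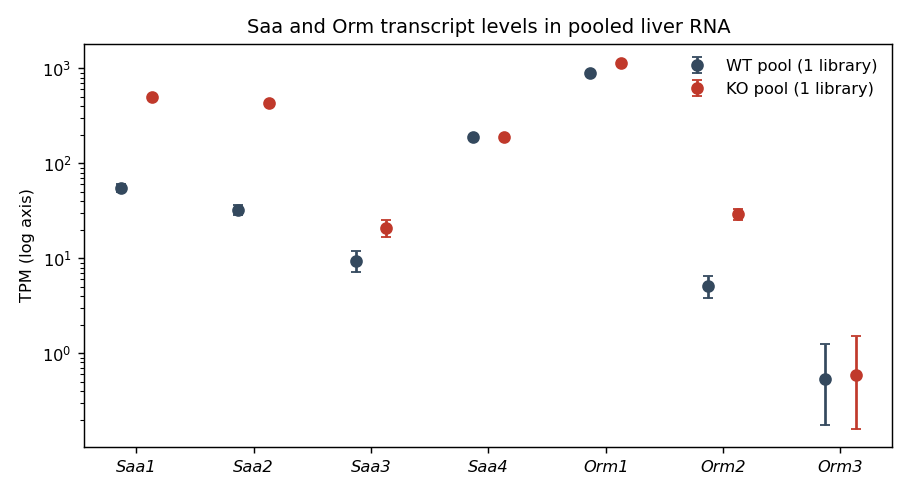
Transcript level of the 7 Saa and Orm genes in TPM (log axis) in the WT and the KO pool, 1 library each; bars are 95% intervals for counting error only. Saa1, Saa2, Saa3 and Orm2 lie apart, Orm1 lies 0.36 apart on the log2 scale, and Saa4 and Orm3 overlap.

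A gene was counted as up with a fold of at least 1.4 and as down with a fold of at most 0.6 on the log2 scale above, among the 11623 genes averaging 1 TPM or more. These fold limits follow the study, whose probability of differential expression was not used. Of the 7 members, 6 reached that level, and 4 of these were up (Saa1, Saa2, Saa3 and Orm2), 0 were down and 2 were neither (Saa4 and Orm1). Over all genes tested 1.21% were up and 0.301% down. Since the members were chosen with this contrast in view, nothing is read from that gap. The member nearest above the limit of 1.4 was Saa3, at 2.11-fold, and the nearest below it was Orm1, at 1.29-fold. The same 4 genes were up with limits of 2 and 0.5, against 0.387% of all genes tested up and 0.112% down. Saa3 passed the limit of 2 within counting error only, as its interval of the log2 ratio, 0.73 to 1.68, holds that limit. Among the 6184 genes averaging 10 TPM or more that are in both deposited tables, Saa2, Saa1 and Orm2 ranked 3rd, 4th and 5th by log2 change, Saa3 20th, Orm1 81st and Saa4 2121st. Over all genes tested, where 14 short RNA genes listed at 0 in WT come first, these ranks were 15th, 16th and 17th, with Saa3 42nd, Orm1 289th and Saa4 4584th. The median log2 change of the 6 members tested was 1.69, beside -0.01 over all genes tested.

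**Figure D2:**
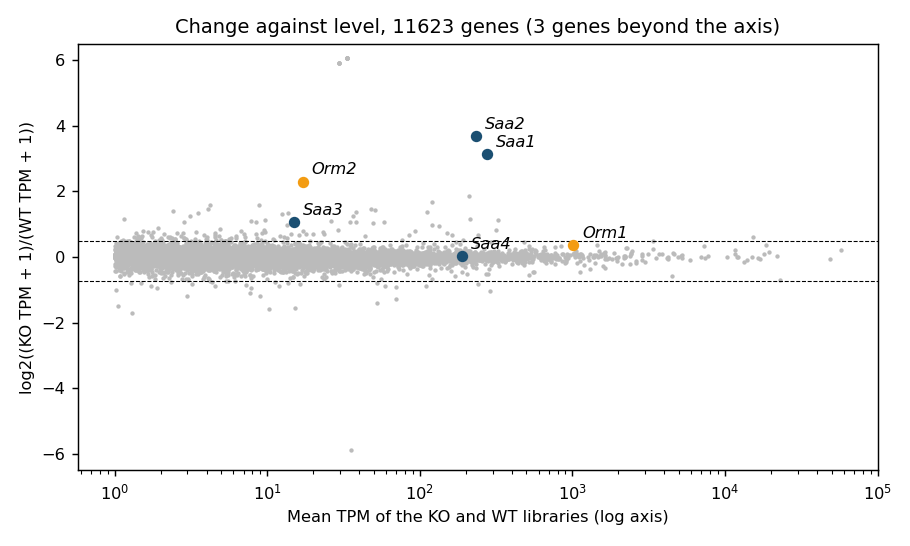
Log2 change of KO over WT against the mean TPM of both libraries (log axis) for the 11623 genes tested, in grey, with Saa genes in blue, Orm genes in orange and the fold limits of 1.4 and 0.6 dashed; 3 genes lie beyond the axis. Saa1 and Saa2 stand at 3.15 and 3.69, while Saa4 and Orm1 stand at 0.02 and 0.36.

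Because copies of a family can share reads, the family sums were compared as well. The Saa genes summed to 284.28 TPM in the WT pool and 1138.34 TPM in the KO pool, a log2 change of 2.0 (interval for counting error 1.95 to 2.05). With the authors' means, which are not divided by transcript length, the Saa sum had a log2 change of 0.99. The Orm genes summed to 889.74 TPM in the WT pool and 1166.73 TPM in the KO pool, a log2 change of 0.39 (0.35 to 0.43). The Orm sum was therefore 3.13 times the Saa sum in WT and 1.02 times in KO. All 7 genes together made up 0.118% of the summed TPM in WT and 0.229% in KO.

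The makeup of the Saa family differed between the libraries more than its size alone shows. In WT, Saa4 made up 66.0% of the Saa sum, Saa1 19.3%, Saa2 11.5% and Saa3 3.27%. In KO, Saa1 made up 43.5%, Saa2 37.9%, Saa4 16.7% and Saa3 1.82%. The gain of 854.06 TPM was carried by Saa1 (51.6%) and Saa2 (46.7%), with 1.34% from Saa3 and 0.334% from Saa4. The pair of Saa1 and Saa2 summed to 87.46 TPM in the WT pool and 927.25 TPM in the KO pool, a log2 change of 3.39 (3.29 to 3.52). The ratio of Saa1 to Saa2 was 1.68 in WT and 1.15 in KO, so the less abundant copy differed more.

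In the Orm family, the gain in TPM and the fold lay in different genes. Orm1 held 99.4% of the Orm sum in WT and 97.5% in KO, and 91.3% of the gain of 276.99 TPM was its own. Orm2 had the larger fold but added 8.65% of the gain, and its share of the sum was 0.573% in WT and 2.49% in KO. Orm1 exceeded Orm2 by 173 times in WT and by 39.1 times in KO.

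**Figure D3:**
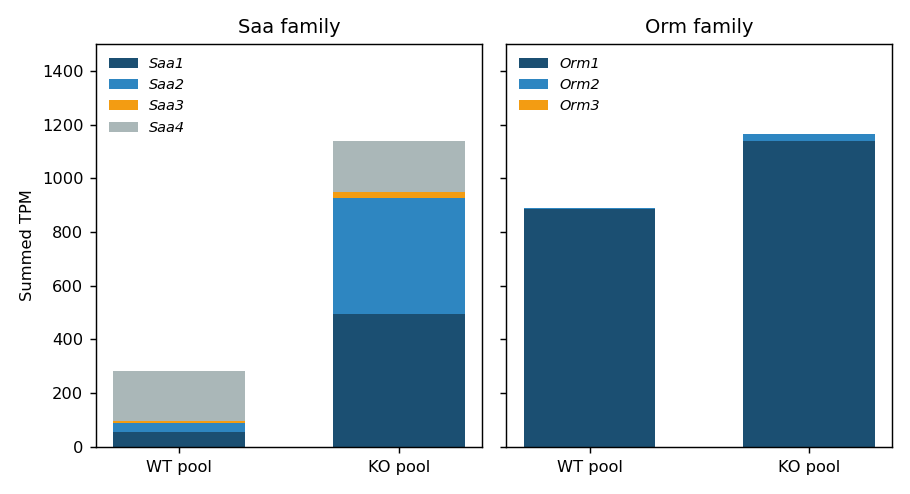
Summed TPM of the Saa family (left) and the Orm family (right) in the WT and KO pools, stacked by gene from 0. The Saa sum is 284.28 TPM in WT, mostly Saa4, and 1138.34 TPM in KO, mostly Saa1 and Saa2, while the Orm sum is nearly all Orm1 in both.

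Sequence likeness sets how far a read can be assigned to 1 copy. Between the protein-coding transcripts of GENCODE M21, Saa1 (609 bases) and Saa2 (606 bases) were 94.4% identical, while Saa3 (555 bases) was 81.7% and Saa4 (2094 bases) 74.1% identical to Saa1 over the aligned part. None of the 4 Saa transcripts shared an exact window of 100 bases, the length of 1 read, with a transcript of another gene. Reads that align with mismatches are not covered by this count. Orm1 and Orm2 (775 bases each) were 91.0% identical and shared 6.95% of their windows with each other. Orm3 (773 bases) was 87.5% identical to Orm1 and 89.0% to Orm2 and shared no window. In the second deposited table the authors' mean of each library per TPM was 1.01 to 1.03 times as high in KO as in WT for the 6 genes above 1 TPM, beside a 5th to 95th percentile of 1.0 to 1.02 for genes of at least 10 TPM. The 2 tables thus give these genes nearly the same change. Both come from the same reads of the same libraries, so this does not test how reads were divided between copies. Values of Orm2 remain uncertain to the extent that reads common to Orm1 were divided between the copies. How reads were divided between Saa1 and Saa2 was not tested either.

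No gene beside either cluster that averaged 1 TPM or more was up or down. In so few genes that count is near the share over all genes tested, which was 1.21% up and 0.301% down, so nothing is read from it. Next to Saa3, Saal1 (serum amyloid A like 1) was at 1.36 TPM in the WT pool and 1.85 TPM in the KO pool, a log2 change of 0.27. Tph1 (tryptophan hydroxylase 1) was under 1 TPM in both, and Sergef was at 2.68 TPM in the WT pool and 2.98 TPM in the KO pool. Beyond Saa2, Hps5 (a subunit of an organelle biogenesis complex) and Gtf2h1 (a subunit of the general transcription factor TFIIH) had log2 changes of -0.06 and -0.10. Beside the Orm cluster, Col27a1 (a fibrillar collagen) had a log2 change of 0.08 and Akna (an AT-hook factor) by 0.06. Mir455, inside Col27a1, is listed at 0 in both libraries. These are the genes with a TPM value among the 3 nearest RefSeq genes on each side.

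**Figure D4:**
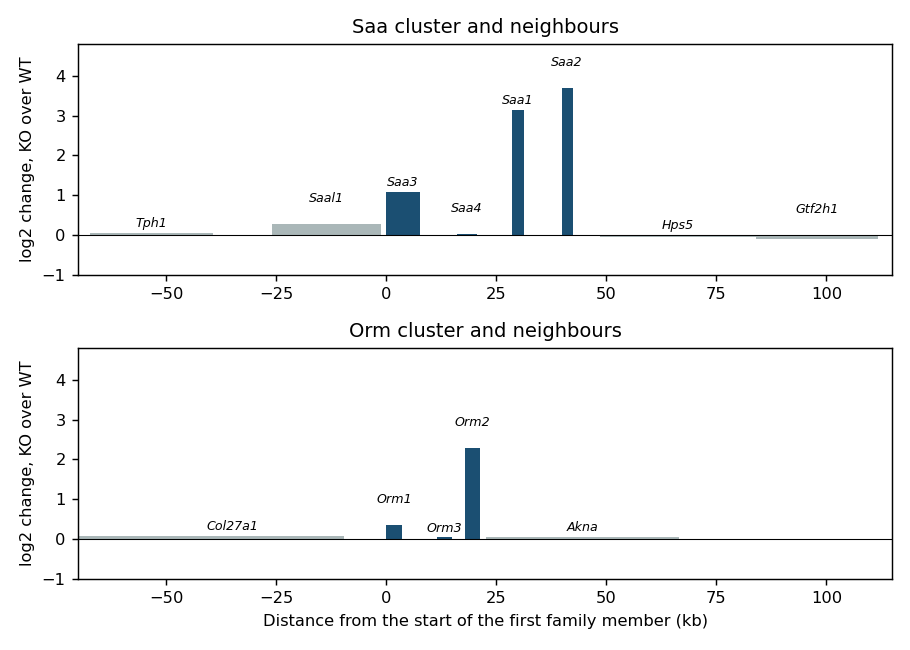
Log2 change of KO over WT for protein-coding genes of the Saa cluster (top) and the Orm cluster (bottom) against distance in kb from the start of the first family member; bar width is the length of the gene, members are blue and neighbours grey, Sergef lies outside the range and Col27a1 runs past its left edge. Saa2 reaches 3.69, while the neighbours stay between -0.10 and 0.27.

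The genes of the pathway that controls Saa and Orm transcription were compared in the same way. Of 38 receptors, kinases, inhibitors and transcription factors of interleukin-6, interleukin-1 and NF-kB signalling and of hepatocyte transcription, 37 averaged 1 TPM or more, 0 were up and 0 were down, and their median log2 change was -0.03. Over all genes tested 1.21% were up and 0.301% down, so a count of 0 in a list of this size is near that share. Socs3, a feedback inhibitor that STAT3 induces, was highest at 4.79 TPM in the WT pool and 6.16 TPM in the KO pool (0.31, interval of the log2 ratio 0.10 to 0.64). Stat3 itself was at 46.01 TPM in the WT pool and 53.47 TPM in the KO pool (0.21), and the C/EBP genes Cebpb and Cebpd had log2 changes of 0.12 and 0.10. Il1r1, the interleukin-1 receptor, was lowest at 35.75 TPM in the WT pool and 26.40 TPM in the KO pool (-0.42), and Osmr, the oncostatin M receptor subunit, had a log2 change of -0.35. Transcript levels do not measure the activity of these proteins.

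Of 16 cytokines and growth factors that act on the acute phase response, 7 averaged 1 TPM or more and none was up or down. With 1.21% up and 0.301% down over all genes tested, nothing is read from that count. Il6 was covered by 1 estimated read in KO and 0 in WT, and Tnf by 1 in KO and 3 in WT. Il1b was highest at 1.10 TPM in the WT pool and 1.66 TPM in the KO pool (0.34), and its interval of -0.26 to 1.48 holds 0 on 26.0 estimated reads in KO and 23.0 in WT. Il1a (0.17), Il18 (-0.08), Cntf (-0.11), Il1rn (-0.02) and Tgfb1 (-0.01) lay between, and Hgf was lowest at -0.22. Lif, Il10 and Clcf1 had at most 3 estimated reads in either library, and Osm, Il11, Il22 and Ifng were at most 0.09 TPM and are without a row in the second table. For the cytokines with so few reads no difference was detectable at this depth.

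**Figure D5:**
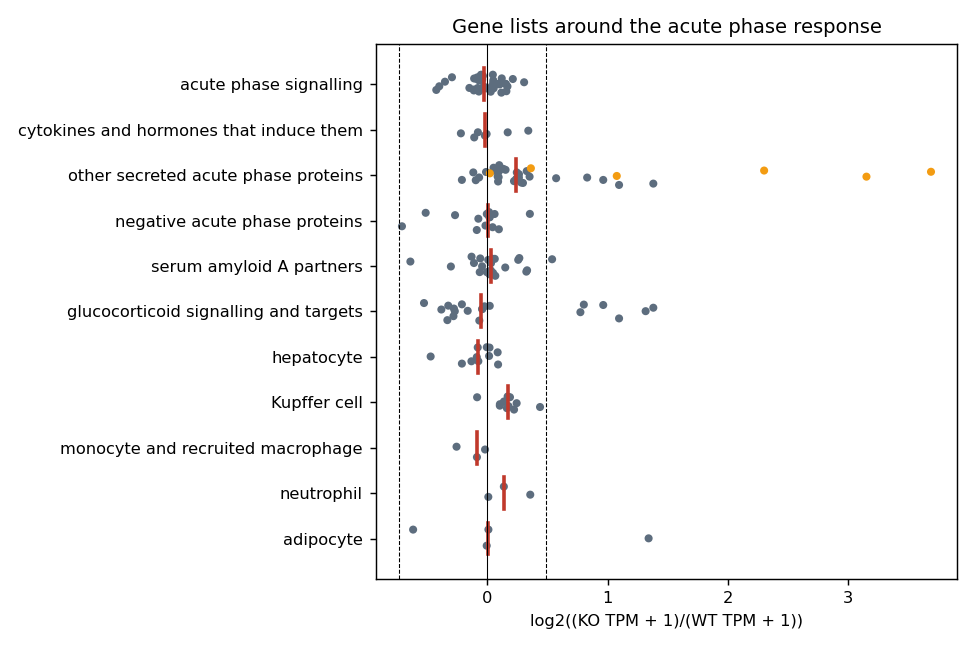
Log2 change of KO over WT for genes averaging 1 TPM or more in 11 gene lists, 1 point per gene, with the list median as a red bar, Saa and Orm genes in orange and the fold limits of 1.4 and 0.6 dashed; vertical scatter within a row has no meaning. The Saa and Orm genes reach 3.69, while signalling genes stay between -0.42 and 0.31.

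Among 29 other genes of the acute phase averaging 1 TPM or more, 5 were up (17.2%) and 0 down, with a median log2 change of 0.22. The shares over all genes tested were 1.21% up and 0.301% down. The 5 genes up in this list were Mt2 (1.38) and Mt1 (0.96), metallothioneins that bind zinc, Lcn2 (1.10), a lipocalin that binds siderophores, Fgl1 (0.83), a fibrinogen-like hepatokine, and Cd14 (0.57), a receptor for lipopolysaccharide. Hamp, the iron hormone hepcidin, was lowest at -0.21. Lcn2 was at 4.63 TPM in the WT pool and 11.03 TPM in the KO pool. Cd14 rests on 66.0 estimated reads in KO and 51.0 in WT. Its interval of the log2 ratio, 0.25 to 1.36, holds the limit of 1.4-fold. Of 14 genes that fall in an acute phase response, 0 were up and 0 down by the limits of 1.4 and 0.6. Their median was 0.01, from -0.71 for Mup20 to 0.35 for Cyp2c29. Mup20 (0.612-fold) and Apoa4 (0.701-fold) would count as down with the reciprocal of 1.4 as the lower limit.

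Of 22 tested genes listed as serum amyloid A partners (lipoprotein and lipid-handling proteins, receptors, matrix proteins and proteases), 1 was up (4.55%) and 0 were down. The shares over all genes tested were 1.21% up and 0.301% down. The gene up in this list was Fpr1 (a formyl peptide receptor, 3.04 TPM in the WT pool and 4.87 TPM in the KO pool, log2 change 0.54). It rests on 78.0 estimated reads in KO and 65.0 in WT. Its interval of the log2 ratio, 0.20 to 1.19, holds the limit of 1.4-fold. Apoa1, the main apolipoprotein of high density lipoprotein, was at 12085.39 TPM in the WT pool and 12054.57 TPM in the KO pool. Scarb1, its receptor, was at -0.11 on that scale, and Cd36, a scavenger receptor, was lowest at -0.64. The median of this list was 0.03.

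Of 20 tested genes of glucocorticoid signalling and its targets, 6 were up (30.0%), namely Mt2, Irs2 (1.32), Lcn2, Mt1, Ddit4 (0.80) and Sgk1 (0.77), and 0 were down. The median of this list was -0.05 and 13 of its genes lay below 0. The shares over all genes tested were 1.21% up and 0.301% down. Mt2, Lcn2 and Mt1 are also in the acute phase list. Fkbp5, a co-chaperone that the receptor induces, was lowest at 50.62 TPM in the WT pool and 34.86 TPM in the KO pool (-0.53). Nr3c1, the receptor, was at 36.47 TPM in the WT pool and 35.42 TPM in the KO pool.

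Markers of liver cell types were compared beside the members, since Saa3 is made by macrophages and fat. The hepatocyte list summed to 94027 TPM in the WT pool and 91087 TPM in the KO pool, with a median of -0.07 over 11 genes and 0 up or down, from -0.47 for Ass1 to 0.09 for Fgb. A count of 0 in a list of this size is near the share over all genes tested, which was 1.21% up and 0.301% down. The median over all genes tested was -0.01. Kupffer cell markers, 11 of 11 averaging 1 TPM or more, had a median of 0.17, and 10 of them lay above 0, from -0.08 for Slc40a1 to 0.44 for Folr2. They summed to 431.0 TPM in the WT pool and 476.6 TPM in the KO pool, and their part in the level of Saa3 was not tested. Neutrophil markers summed to 9.40 TPM in the WT pool and 10.35 TPM in the KO pool, with 3 of 12 at 1 TPM or more (from 0.01 for S100a8 to 0.36 for S100a9), and markers of recruited macrophages to 138.1 TPM in the WT pool and 132.6 TPM in the KO pool, with 3 of 10 (from -0.26 for Cd68 to -0.02 for Lyz2). Adipocyte markers summed to 35.56 TPM in the WT pool and 29.08 TPM in the KO pool. Among them Adipoq had 0 estimated reads in KO and 1 in WT, Fabp4 was lowest at -0.62, and Cfd (complement factor D) was up, at 1.55 TPM in the WT pool and 5.46 TPM in the KO pool. Of 14 pancreatic acinar markers 13 were below 1 TPM and Cela1 had a log2 change of -0.04. The lymphocyte list had 1 gene of 9 above that level (Cd79b, 0.42). Its interval of -0.20 to 1.98 holds 0 on 19.0 estimated reads in KO and 14.0 in WT. Nkg7, below that level, had 0 estimated reads in KO and 12.0 in WT. No marker was listed at exactly 0 in either library, but posterior mean TPM can lie above 0 without a read. Adipoq, for example, was listed at 0.07 TPM in KO on 0 estimated reads, so a listed value does not show detection.

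The 5 genes outside the families whose log2 change lay nearest to the 2.0 of the Saa sum, among genes averaging 10 TPM or more and over 2 libraries, were Mup9 (1.86), Slc25a25 (1.69), Gadd45g (1.46), Snora43 (1.43) and Rps27 (1.39). Likeness here is closeness of a single number. Mup9 belongs to a multigene family, and reads may have been divided among its members. Snora43 is a small nucleolar RNA.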

How the data were processed

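Liver RNA was pooled by genotype before a stranded total RNA library was made, and each library was sequenced in paired reads of 100 bases. Per the labels and the study's methods, the authors aligned reads to mm10 with RSEM 1.2.09 and Bowtie after CASAVA 1.8.2. The authors deposited posterior mean TPM for 24054 genes, with totals of 994702 in WT and 1005325 in KO, so they had been scaled between the libraries before deposit. A second deposited table (16318 genes) holds, from EBSeq, the normalized signal of each library, called the authors' mean here. Its columns are assigned to KO and WT from the study's supplementary table. The columns of the authors' own comparison (posterior probabilities and folds) were not used.

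Changes are log2((KO TPM + 1)/(WT TPM + 1)) throughout. No p-value is given, as a genotype is 1 library. The most frequent low value of the authors' means, 1.16 in KO and 0.860 in WT, was taken as 1 read. Within a tolerance of 0.02, 78.4% of KO and 75.0% of WT values above 0 were whole reads, so no count test was run. Intervals of genes are exact Clopper-Pearson intervals at 95% from estimated reads rounded to whole numbers, those of levels exact Poisson intervals, and those of sums use a normal approximation with the reads weighted by TPM. The members, gene lists and motifs were chosen with earlier results of these data known, and the motif letters after the data were seen. Named genes were the members, Pgrmc1, in each list those past the fold limits and the highest and lowest, cytokines of the list, cluster neighbours and the 5 nearest in change. Other genes named were chosen after their values were seen. The cholangiocyte list is not reported here. Sequences and coordinates are from RefSeq (GRCm38.p6) and transcripts from GENCODE M21. Alternatives are given in the closing section. Python 3.11.15, numpy 2.4.6, pandas 2.3.3, scipy 1.17.1, Biopython 1.88 and matplotlib 3.10.9 were used.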

Additional observations from a re-analysis of the deposited data

How the results depend on the processing

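No paired analysis was possible because a single pooled library stands for each genotype, and for the same reason no replicate could be left out. The alternatives were a pseudocount of 0.1 TPM, the authors' means, scaling to the median gene, scaling after the top 50 genes by TPM were left out, other fold limits, other filters and other members in the sums. Of 28 values of single Saa and Orm genes under the first 4 of these, 28 lay above 0 and 28 moved by less than counting error. Neither scaling could move them much. The log2 shift of the median gene was -0.013, and scaling without the top 50 genes left each printed value unchanged. The authors' means come from the same reads. For Saa4 and Orm3 a value above 0 shows no rise, as their intervals, -0.02 to 0.08 and -2.23 to 2.32, hold 0. In all, 139 of 158 values stayed within a set margin and 19 did not. The margin was counting error for genes and sums, and 1.5 times for counts. List medians were held to the counting error of a typical single gene of the list, which is wide where few genes were tested. The lymphocyte median, for example, stayed within it at 0.82 with the authors' means and 0.06 without a filter, against 0.42.

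The Saa sum changed by 0.99 with the authors' means in place of 2.0, since these are not divided by transcript length and the long Saa4 transcript then weighs more. It changed by 1.48 without Saa1, by 3.28 without Saa4 and, chosen after the values were seen, by 3.39 for Saa1 and Saa2 alone. The Orm sum changed by 2.21 without Orm1, on Orm2 and Orm3 alone, in place of 0.39. Pgrmc1 changed by -10.25 with 0.1 TPM and by -10.44 with the authors' means.

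Of the members, 4 were up under every fold limit, filter and scaling tried, with Saa3 within counting error of the limit of 2. Over all genes, 141 were up and 35 down, against 280 and 70 with 0.1 TPM, 296 and 80 with the authors' means, 45 and 13 with limits of 2 and 0.5, and 62 and 17 with a minimum of 10 TPM. With the reciprocal of 1.4 as the lower limit 118 were down, so that 54.4% of the genes past a limit were up in place of 80.1%. The hepatocyte median was -0.06 with the authors' means and after centring, and the adipocyte median was -0.62 with a minimum of 10 TPM, which leaves 1 gene. Lists without a gene at that minimum gave no value. Depth limits Orm3 and the cytokines, while pooling limits the abundant members.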
